A study of Mus musculus with 8 samples.

Results

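The TGF-β and BMP signaling genes described here are the ligands *Tgfb1*, *Tgfb2*, *Tgfb3* and *Bmp6*, the receptors *Tgfbr1*, *Tgfbr2*, *Bmpr1a* and *Bmpr2*, and the BMP target genes *Id1* and *Id3*. They were picked by symbol, and 10 of 10 had a row among the 43629 genes of the count table. The counts came from *Axin2CreERT2;R26RTdTomato* mice, in which tamoxifen switches on a Cre recombinase in *Axin2*-expressing cells, so that these cells and their descendants become red fluorescent. All animals carried both alleles, received 3 daily tamoxifen injections (P23 to P25) and were killed at P30. Red resting chondrocytes and unlabeled, flattened proliferative chondrocytes at least 50 μm from the secondary ossification center were collected from 8 μm frozen sections by laser microdissection, and each of 4 mice (1 and 2 male, 6 and 13 female) gave 1 library from each zone. The label records *Axin2* expression at the time of the injections and its progeny, and each library is the pooled RNA of a microdissected area.

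TGF-β ligands are secreted in a latent form and, once released, bind the type II receptor TGFBR2, which recruits and phosphorylates the type I receptor TGFBR1, and the activated complex signals through Smad2 and Smad3. BMPs act in parallel through type II receptors such as BMPR2 and type I receptors such as BMPR1A, which signal through Smad1, Smad5 and Smad8 and switch on the *Id* genes, inhibitors of basic helix-loop-helix factors. In the growth plate, TGF-β signaling is known to restrain hypertrophy, and BMP signaling is required for chondrocyte proliferation and maturation.

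The sequences upstream of *Tgfbr1*, *Tgfbr2* and *Tgfb2* are shown because these are the TGF-β branch genes whose levels did not overlap between the zones in the values given further on. RefSeq promoter windows matched 8 of the 10 genes. The 250 bases before the RefSeq start are printed on the strand of the gene, 5′ to 3′, in build GRCm38.p6. Capitals mark matches to 4 motifs, searched on both strands, and no match overlapped another. The GC box was searched as GGGCGG. The Smad box, the short element that Smad3 and Smad4 bind, was searched as CAGAC. The TATA box was searched as TATAAA, the element that positions transcription starts. The E-box, a site of basic helix-loop-helix factors, was searched as CACGTG. The *Tgfbr1* window lies at chr4:47352972-47353221 on the plus strand, the *Tgfbr2* window at chr9:116175364-116175613 on the minus strand and the *Tgfb2* window at chr1:186705990-186706239 on the minus strand.
Tgfbr1: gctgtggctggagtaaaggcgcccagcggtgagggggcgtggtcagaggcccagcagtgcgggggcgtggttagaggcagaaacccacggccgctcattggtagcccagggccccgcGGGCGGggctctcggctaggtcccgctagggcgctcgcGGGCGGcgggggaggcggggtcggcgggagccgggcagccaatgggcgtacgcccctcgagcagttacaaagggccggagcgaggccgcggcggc
Tgfbr2: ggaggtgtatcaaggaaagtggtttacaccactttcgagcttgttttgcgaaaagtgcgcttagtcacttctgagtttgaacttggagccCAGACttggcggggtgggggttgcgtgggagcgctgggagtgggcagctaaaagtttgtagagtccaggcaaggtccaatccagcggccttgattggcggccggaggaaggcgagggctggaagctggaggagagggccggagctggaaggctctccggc
Tgfb2: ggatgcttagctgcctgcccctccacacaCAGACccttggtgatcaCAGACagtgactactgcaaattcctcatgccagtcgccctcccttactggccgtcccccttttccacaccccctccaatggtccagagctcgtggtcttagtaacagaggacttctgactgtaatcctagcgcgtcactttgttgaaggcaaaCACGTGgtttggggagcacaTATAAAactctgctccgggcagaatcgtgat

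The windows differed in composition. The *Tgfbr1* window was 74.8% G and C, that of *Tgfbr2* 58.4% and that of *Tgfb2* 53.6%, against a median of 52.4% over 32851 windows of the same length. The *Tgfbr1* window, the first of 2 starts that RefSeq lists, held 2 GC boxes, which 32.7% of all windows hold at least once. The *Tgfbr2* window held 1 Smad box and the *Tgfb2* window 2 of them, a motif present in 42.2% of windows. A TATA box was found in the *Tgfb2* window, with its first base at -31 from the start, and an E-box at -51. The TATA box letters occur in 12.4% of windows and the E-box letters in 6% of them. These matches describe the letters only, and binding was not measured. The *Tgfb2* window also overlaps an exon of the antisense gene *Gm29491*, on which 0 counts fell in the 8 libraries.

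Resting zone libraries held 192882 to 462044 counts and proliferative zone libraries 249284 to 631474. Levels are given as CPM, counts scaled to a common library total with edgeR's TMM factors, and 3 counts, the most that a count of 0 allows by chance, correspond to 5.97 to 14.7 CPM in resting and 4.81 to 12.4 CPM in proliferative libraries. These limits and the intervals below cover counting error only, since reads amplified without molecular identifiers do not stand for separate molecules. Log2 fold changes are resting over proliferative with their standard error, from edgeR's quasi-likelihood test with the mouse as a block, adjusted by the Benjamini-Hochberg method over 3793 genes kept by edgeR's filter against low counts. A gene was called at an adjusted p below 0.01 with a log2 fold change above 1 or below -1. Of all tested genes, 10.2% were called on the resting side and 6.06% on the proliferative side. Chondrocyte markers were present in both zones with 10 of 10 genes, and *Axin2* itself had 0 counts in resting and 1 in proliferative libraries. The resting zone libraries also held marker RNA of bone and marrow, described with its values below. In such bulk libraries, fewer cells of a type and less RNA per cell cannot be told apart.

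Of the 10 genes, 7 passed the filter and 1 of these, *Tgfbr1*, was called, against 16.2% of all tested genes called in either direction. The zones did not overlap for *Tgfb2*, *Tgfbr1*, *Tgfbr2*, *Bmpr1a* and *Id3*, 5 of the 7, whereas 32.9% of all tested genes had no overlap. *Tgfbr1*, *Tgfbr2* and *Id3* lay on the resting side and *Tgfb2* and *Bmpr1a* on the proliferative side. The filter asked for a level of 25.2 CPM before TMM scaling in 4 libraries, which *Tgfbr1* and *Id3* reached in 4 resting and 0 proliferative libraries and *Bmpr1a* in 1 resting and 4 proliferative libraries. *Tgfbr1* and *Id3*, which passed through the resting zone alone, thus had to differ, and *Bmpr1a* passed mostly through the proliferative zone, where it is high. The count without overlap is therefore a description only. An exact two-sided permutation of the 8 libraries on log2(CPM + 1) gave p = 0.0286 for each of the 5 genes, the smallest value that 4 against 4 allow, which the lack of overlap fixes. With the zones swapped within mice, an exact permutation added after the data were seen, p was 0.125 for these 5 and for *Id1* and *Tgfb3*, the smallest value that 4 mice allow. *Tgfb1*, *Tgfb3* and *Bmp6* had too few counts for the filter.

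**Figure D1:**
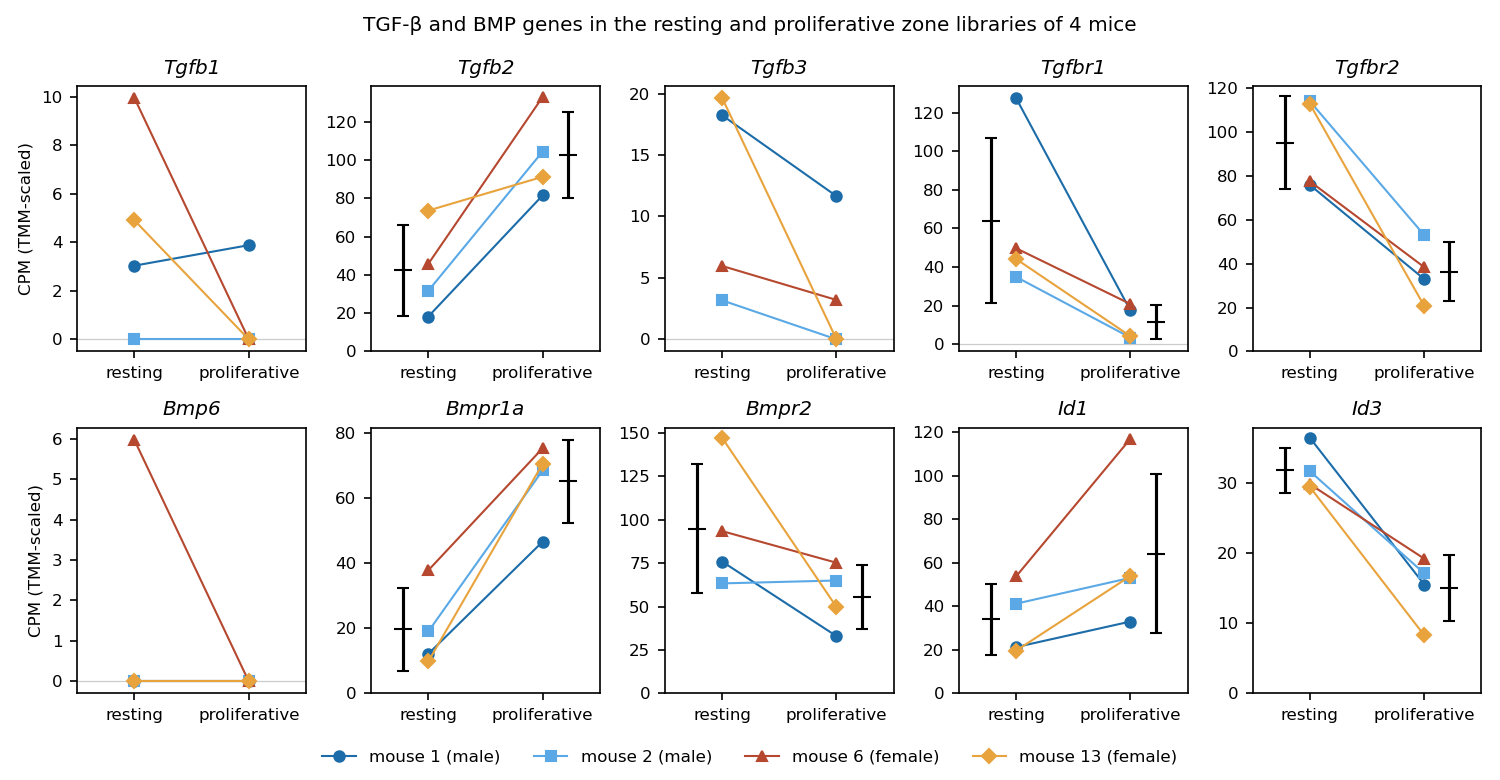
Level of each gene in CPM (vertical axes, scaled separately from 0) in the resting and proliferative zone library of each of 4 mice, with lines joining the libraries of a mouse. Black bars show mean ± SD (n = 4) for the 7 genes that passed the filter. The lines of *Tgfbr1*, *Tgfbr2* and *Id3* fell and those of *Tgfb2*, *Bmpr1a* and *Id1* rose from the resting to the proliferative zone in 4 of 4 mice.

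Among the ligands, *Tgfb2* (chr1:186622792-186705989, minus strand) had the most counts. Its resting zone levels were 18.2, 31.7, 45.8 and 73.6 CPM in mice 1, 2, 6 and 13, and its proliferative zone levels were 81.5, 104, 133 and 91.2 CPM. Every proliferative zone library lay above every resting zone library, and mouse 13 had the smallest gap. The means were 42.3 ± 23.7 CPM and 103 ± 22.3 CPM (SD, n = 4). The log2 fold change was -1.41 ± 0.416 (edgeR adjusted p = 0.0266), which missed the threshold. A second fit covered all 17492 genes that had any count. It called 6.31% of them, 3.77% on the resting and 2.54% on the proliferative side. *Tgfb2* was called there (log2 fold change -1.63, edgeR adjusted p = 0.0078). Each of the 7 genes that passed the filter had a lower log2 fold change in the second fit than in the main one. The part of this common shift in the calls was not tested.

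*Tgfb1* and *Tgfb3*, the other TGF-β isoforms, were near the limit of detection. *Tgfb1* (chr7:25687002-25705077, plus strand) had 1, 0, 5 and 1 counts in the resting zone libraries of mice 1, 2, 6 and 13 and 2, 0, 0 and 0 counts in the proliferative zone. *Tgfb3* (chr12:86056745-86079041, minus strand) had 6, 1, 3 and 4 counts in resting and 6, 0, 2 and 0 in proliferative libraries. The *Tgfb3* level was higher in the resting zone in 4 of 4 mice, but the libraries of the zones overlapped. Over the summed counts, the ratio of resting to proliferative zone was 2.54 for *Tgfb3* (95% interval 0.996 to 7) and 5.09 for *Tgfb1* (0.969 to 50.2). In the second edgeR fit the adjusted p was 0.710 for *Tgfb3* and 0.854 for *Tgfb1*, so that a difference was not detectable at this depth. Single libraries moved these fitted values, 1.43 and 1.78 on the log2 scale. That of *Tgfb3* was 2.35 without mouse 1 and 0.81 without mouse 13 and, without the block, 2.65 without the proliferative zone library of mouse 1 and 0.72 without that of mouse 2. That of *Tgfb1* was 3.92 without mouse 1 and 0.56 without mouse 6. *Gm37804*, whose exon overlaps *Tgfb3* on the opposite strand, held 2 counts in all.

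Within a library, the isoforms could be set against each other without regard to scaling. *Tgfb2* made up 46.2% of the counts of the 3 isoforms in the resting zone library of mouse 1 (95% Wilson interval 23.2 to 70.9%), and 90.9%, 74.2% and 75% in mice 2, 6 and 13. In the proliferative zone its shares were 84%, 100%, 97.6% and 100%. The shares were higher in the proliferative zone in each mouse, while the zones overlapped between the resting library of mouse 2 and the proliferative library of mouse 1.

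*Bmp6* (chr13:38345107-38500302, plus strand), a BMP ligand known from hypertrophic cartilage, was detected in a single library. The resting zone library of mouse 6 held 3 counts (5.97 CPM), and the other 7 libraries held 0. No fold change is given for this gene, whose zones were both at or under the limit of detection. Its exons overlap those of *Txndc5* on the opposite strand, which had 59 counts in resting and 154 in proliferative libraries. The strand setting of the counting is not given in the sources used here. It is therefore not known whether reads in such overlaps were counted for the named gene, for its partner or for neither.

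Among the receptors, *Tgfbr1* (chr4:47353222-47414931, plus strand) showed the largest fold change of the 7 genes tested. Its levels were 128, 34.9, 49.7 and 44.2 CPM in the resting zone of mice 1, 2, 6 and 13, and 17.5, 3.42, 20.8 and 4.15 CPM in the proliferative zone. The lowest resting zone library lay above the highest proliferative zone library, and the resting zone library of mouse 1 stood apart from the other 3. The means were 64.1 ± 42.8 CPM and 11.5 ± 8.98 CPM (SD, n = 4), with a log2 fold change of 2.45 ± 0.555 (edgeR adjusted p = 0.00716). *Tgfbr1* entered this test through the resting zone alone, which limits the weight of the call. In the second fit, without that filter, its log2 fold change was 2.23 (edgeR adjusted p = 0.00585). Over summed counts, 87 against 25, the level was 5.06 times higher in the resting zone (95% interval 3.21 to 8.24). The call was lost when mouse 1, 2 or 13 was left out (edgeR adjusted p = 0.0620, 0.0212 and 0.0385) and without the mouse block (0.0113), while the log2 fold change stayed between 2.23 and 3.01 whichever mouse was left out. Without the resting zone library of mouse 1 alone, in the fit without the block, it was 1.78 (edgeR adjusted p = 0.0529).

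*Tgfbr2* (chr9:116084293-116175360, minus strand) lay on the same side. Its resting zone levels were 75.9, 114, 77.6 and 113 CPM in mice 1, 2, 6 and 13, and its proliferative zone levels were 33, 53.1, 38.4 and 20.7 CPM. All 4 resting zone libraries lay above all 4 proliferative zone libraries. The means of 95.1 ± 21.2 CPM and 36.3 ± 13.4 CPM (SD, n = 4) corresponded to a log2 fold change of 1.35 ± 0.399 (edgeR adjusted p = 0.0263), short of the threshold. In the second fit the log2 fold change was 1.14 (edgeR adjusted p = 0.134).

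*Bmpr1a* (chr14:34410734-34503341, minus strand), a BMP type I receptor, lay on the opposite side. Its levels were 12.2, 19, 37.8 and 9.81 CPM in the resting zone of mice 1, 2, 6 and 13, and 46.6, 68.5, 75.3 and 70.5 CPM in the proliferative zone. The zones did not overlap, and mouse 6 had the highest level in both. The means were 19.7 ± 12.7 CPM and 65.2 ± 12.7 CPM (SD, n = 4), with a log2 fold change of -1.74 ± 0.479 (edgeR adjusted p = 0.0195). It was called in the second fit (log2 fold change -1.97, edgeR adjusted p = 0.00712), which lowered the fold changes of all 7 genes that passed the filter. It was also called in the fit without the block when the resting zone library of mouse 6 was left out (-2.21, edgeR adjusted p = 0.00315). *Gm17110*, an antisense gene with exon sequence overlapping that of *Bmpr1a*, had 1, 13, 37 and 7 counts in resting and 23, 33, 32 and 16 in proliferative libraries. Its part in the difference was not tested.

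*Bmpr2* (chr1:59763400-59879014, plus strand), the BMP type II receptor, was measured at 75.9, 63.4, 93.5 and 147 CPM in resting libraries of mice 1, 2, 6 and 13 and at 33, 65.1, 75.3 and 49.8 CPM in proliferative libraries. The zones overlapped, and 3 of 4 mice had the higher level in the resting zone. The log2 fold change was 0.72 ± 0.400 (edgeR adjusted p = 0.215).

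*Tgfbr1* and *Bmpr1a*, the type I receptors of the 2 branches among the 10 genes, were also compared within each library. Other type I receptors, such as *Acvr1*, are not part of these shares. *Tgfbr1* took 91.3% of their summed counts in the resting zone library of mouse 1 (42 of 46, 95% Wilson interval 79.7 to 96.6%), 64.7% in mouse 2, 56.8% in mouse 6 and 81.8% in mouse 13. In the proliferative zone it took 27.3% in mouse 1 (9 of 33, 15.1 to 44.2%), 4.76% in mouse 2, 21.7% in mouse 6 and 5.56% in mouse 13. These shares are a description, since the levels of both genes already lay apart in opposite directions, which fixes that every resting zone share exceeds every proliferative zone share. The intervals of mouse 2 and mouse 6 in the resting zone reached down to 41.3% and 42.2%, into the interval of mouse 1 in the proliferative zone. The mean share was 73.7 ± 15.7% in resting and 14.8 ± 11.4% in proliferative libraries (SD, n = 4).

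*Id1* (chr2:152736251-152737410, plus strand) and *Id3* (chr4:136143497-136145755, plus strand) are both immediate targets of BMP signaling. *Id1* was measured at 21.3, 41.2, 53.7 and 19.6 CPM in resting libraries of mice 1, 2, 6 and 13 and at 33, 53.1, 117 and 53.9 CPM in proliferative libraries. It was higher in the proliferative zone in 4 of 4 mice, but the zones overlapped, with mouse 6 at the top of both. Its log2 fold change was -0.86 ± 0.422 (edgeR adjusted p = 0.158). *Id3* was measured at 36.5, 31.7, 29.8 and 29.4 CPM in resting and at 15.5, 17.1, 19.2 and 8.29 CPM in proliferative libraries. Here the zones did not overlap, at 31.9 ± 3.22 CPM against 15 ± 4.75 CPM (SD, n = 4). The resting zone levels rest on 12, 10, 15 and 6 counts, too few to read their closeness as a feature of the gene. The log2 fold change of 1.04 ± 0.524 was not called (edgeR adjusted p = 0.170), with 75 counts of *Id3* in all 8 libraries.

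The share of *Id1* in the summed counts of *Id1* and *Id3* was 36.8%, 56.5%, 64.3% and 40% in the resting zone of mice 1, 2, 6 and 13. In the proliferative zone it was 68%, 75.6%, 85.9% and 86.7%. The proliferative zone share was the higher one in each mouse and every proliferative zone share lay above every resting zone share, by a margin within the counting error of single libraries, since the 42 counts of mouse 6 in the resting zone gave an interval of 49.2 to 77% and the 25 counts of mouse 1 in the proliferative zone one of 48.4 to 82.8%. The means were 49.4 ± 13.1% and 79 ± 8.92% (SD, n = 4). These shares are given as a description, with no test of their own.

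**Figure D2:**
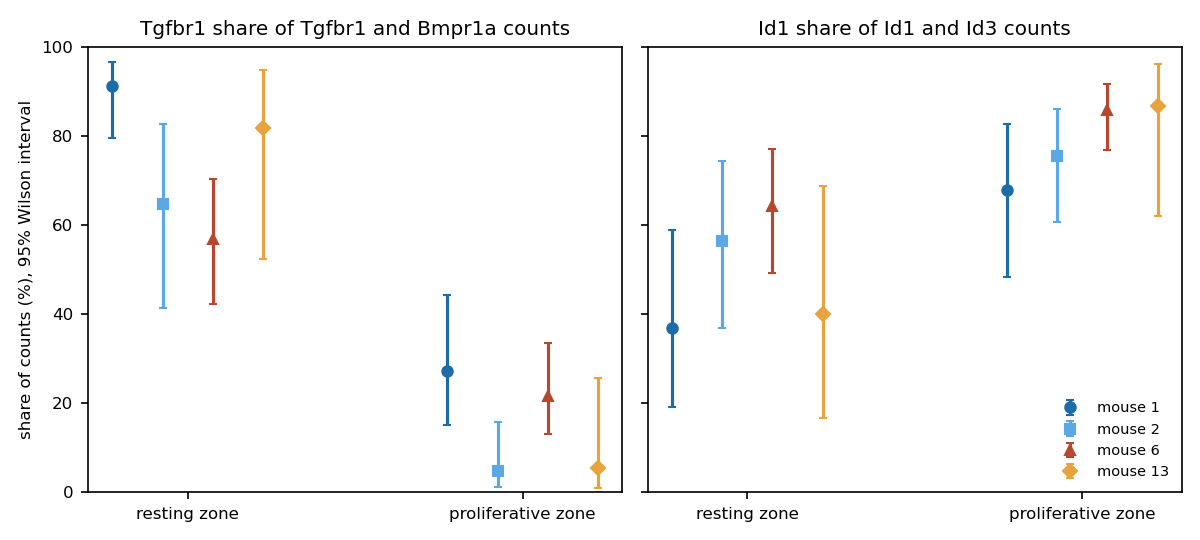
Share of *Tgfbr1* in the counts of *Tgfbr1* and *Bmpr1a* (left) and of *Id1* in the counts of *Id1* and *Id3* (right), in percent, in each library with its 95% Wilson interval (counting error only). The resting zone shares lay at 56.8 to 91.3% for *Tgfbr1* and 36.8 to 64.3% for *Id1*, and the proliferative zone shares at 4.76 to 27.3% and 68 to 86.7%.

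To order the genes within a zone, CPM was divided by the summed exon length in kilobases. RNA amplified by in vitro transcription can favor the 3′ ends of transcripts, and its part in this order was not tested. In the resting zone *Id1* had 29.3 ± 14.2 CPM per kb and *Id3* 17.8 ± 1.80 CPM per kb (SD, n = 4), with overlapping libraries. They were followed by *Tgfbr2* at 11.6, *Tgfbr1* at 9.81, *Tgfb2* at 7.31, *Bmpr2* at 5.28, *Tgfb3* at 3.47, *Bmpr1a* at 3.10, *Tgfb1* at 0.887 and *Bmp6* at 0.383 CPM per kb. Only *Id3* and *Tgfbr2* were neighbors in this order without overlap. In the proliferative zone *Id1* again had the highest mean, at 55.4 ± 31.4 CPM per kb, and *Tgfb2* came next at 17.7 ± 3.86 CPM per kb, separated from its neighbors on both sides. *Bmpr1a* followed at 10.3, *Id3* at 8.40, *Tgfbr2* at 4.44, *Bmpr2* at 3.10, *Tgfbr1* at 1.75, *Tgfb3* at 1.10 and *Tgfb1* at 0.193 CPM per kb, each overlapping its neighbor.

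The zone difference was also compared between the sexes, with 2 mice of each. On the scale of log2(CPM + 1), the mean difference of *Tgfb2* was -1.90 in males and -0.91 in females, that of *Tgfbr1* 2.91 and 2.18, and that of *Id1* -0.48 and -1.26. An edgeR test of the interaction of zone and sex gave adjusted p = 0.994 for *Tgfb2* and 0.995 for *Tgfbr1* and *Id1*, and 0 of 3793 genes passed 0.01. The direction was the same in both sexes for the 7 genes that passed the filter.

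The wider pathway was read from a list of 105 genes, members included, of which 96 had a count and 39 passed the filter. Of these 39, 5 were called on the resting side and 3 on the proliferative side, next to 10.2% and 6.06% of all tested genes, shares against which the counts by role below are also to be read. Their median log2 fold change was 0.15, against 0.04 over all tested genes. Without the members, 4 and 3 of 32 were called. *Bmpr1b*, another BMP type I receptor that was looked up after the values were seen, had 0 counts in the 8 libraries. *Acvr1*, a further one looked up likewise, failed the filter with 58 counts. It stood at 20.5 ± 1.89 CPM in resting and 13.9 ± 11.4 CPM in proliferative libraries (SD, n = 4). The zones overlapped, and 3 of 4 mice had the higher level in the resting zone.

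Among 7 receptors and co-receptors tested, *Tgfbr1* was the only one called. *Acvr2a*, a type II receptor that binds activins and some BMPs and had the highest mean CPM of its role, stood at 230 ± 52.4 CPM in resting and 192 ± 57.3 CPM in proliferative libraries (SD, n = 4; log2 fold change 0.29, edgeR adjusted p = 0.522), and its exons overlap those of *Orc4* on the opposite strand. Of the Smads, 2 of 6 passed the filter and 0 were called. *Smad1*, a transducer of the BMP branch, had 36.7 ± 35.9 CPM in resting and 26 ± 9.31 CPM in proliferative libraries (edgeR adjusted p = 0.869).

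Of the other ligands, *Gdf10*, also known as BMP3b, was called higher in the proliferative zone. It stood at 15.2, 0, 7.96 and 0 CPM in resting libraries of mice 1, 2, 6 and 13 and at 48.5, 61.6, 62.5 and 49.8 CPM in proliferative libraries (log2 fold change -3.22 ± 0.752, edgeR adjusted p = 0.00865). Of 5 genes of latency and activation tested, *Itgav*, the αv subunit of integrins that release latent TGF-β, was called higher in the resting zone (2.20 ± 0.449, edgeR adjusted p = 0.00409). Its levels ran from 91.9 to 206 CPM in resting and from 12.4 to 38.8 CPM in proliferative libraries.

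Secreted inhibitors were called in both directions, with 2 of 7 tested on the resting side and 1 on the proliferative side. *Dcn* (decorin), a proteoglycan that binds TGF-β, lay at 200 to 361 CPM in resting and at 23.3 to 37.3 CPM in proliferative libraries (log2 fold change 3.01 ± 0.356, edgeR adjusted p = 0.00024). *Fstl1*, a secreted follistatin-like glycoprotein, had a log2 fold change of 2.81 ± 0.421 (edgeR adjusted p = 0.000703). *Chrdl1* (chordin-like 1), a BMP antagonist, lay at 9.11 to 35.8 CPM in resting and at 91.2 to 134 CPM in proliferative libraries (-2.83 ± 0.503, edgeR adjusted p = 0.00183). *Bgn* (biglycan), the inhibitor with the highest mean, had 1211 ± 207 CPM and 2152 ± 274 CPM in the resting and proliferative zones (SD, n = 4), which did not overlap, and its log2 fold change of -0.84 missed the threshold (edgeR adjusted p = 0.0233). Of 3 cellular inhibitors tested, 0 were called, and *Fkbp1a*, which binds type I receptors and had the highest mean, gave -0.58 (edgeR adjusted p = 0.170).

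Of 5 *Id* and other BMP target genes tested, 0 were called. Of 8 TGF-β target genes, *Col1a1*, also the main collagen of bone, was called higher in the resting zone (log2 fold change 4.79 ± 0.367, edgeR adjusted p = 5.16e-05) and *Tgfbi*, a matrix protein named for its induction by TGF-β, higher in the proliferative zone (-2.71 ± 0.592, edgeR adjusted p = 0.00595). *Tgfbi* lay at 0 to 19.6 CPM in resting and at 52.4 to 99.5 CPM in proliferative libraries. *Tgfbi* and *Gdf10* reached the level of the filter in 0 resting and 4 proliferative libraries, *Chrdl1* in 1 and 4, and *Fstl1* in 4 resting and 1 proliferative libraries, so that they passed wholly or mostly through the zone in which they are high.

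**Figure D3:**
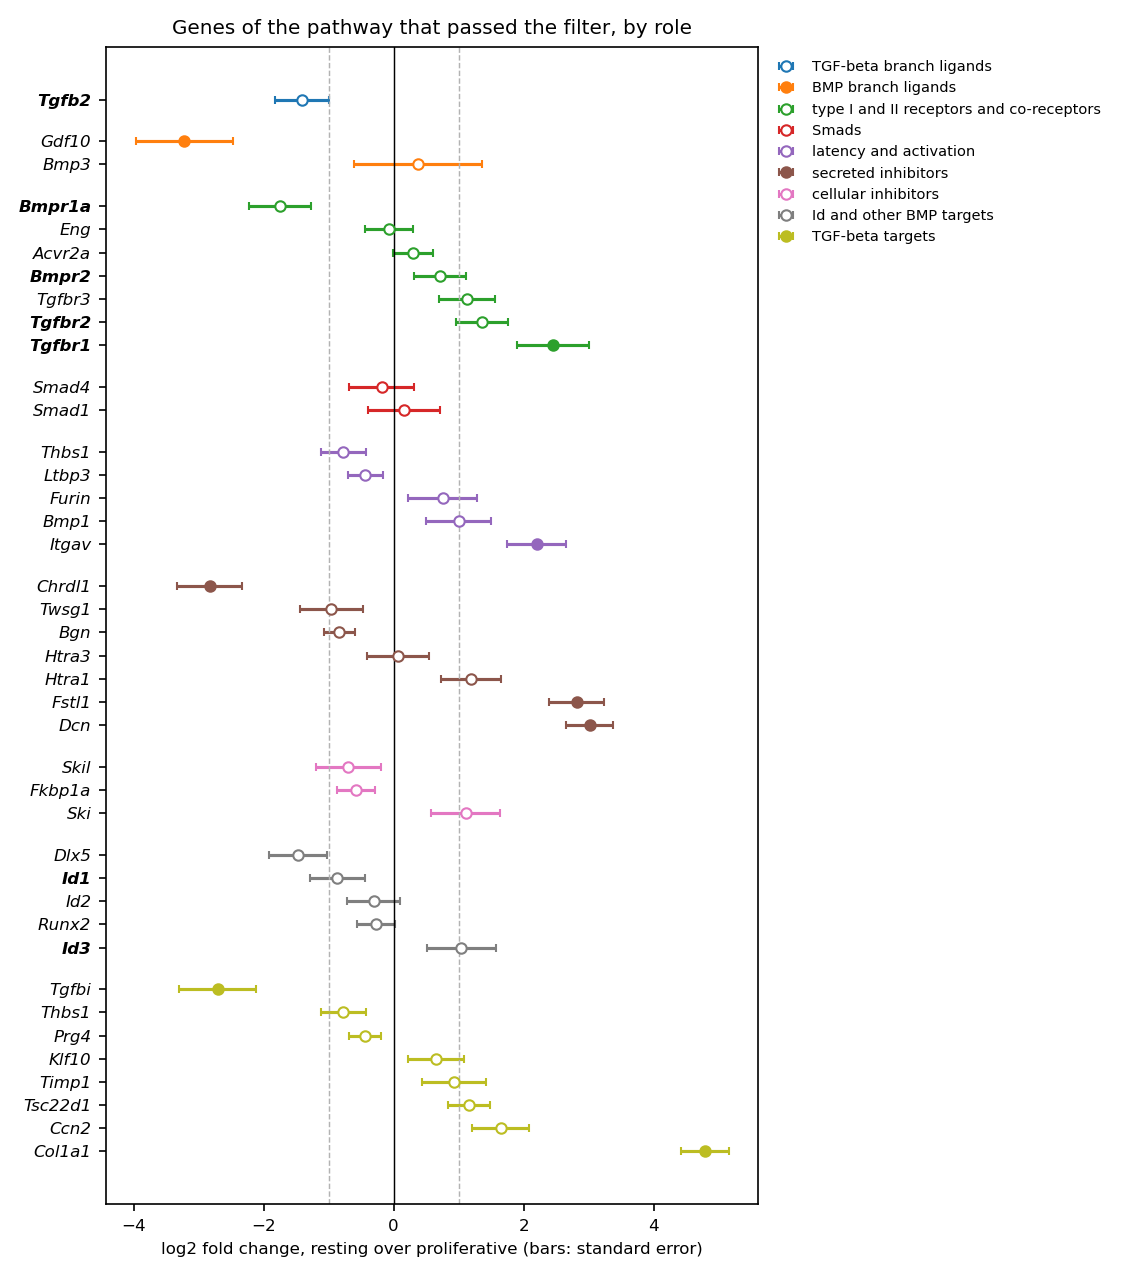
Log2 fold change, resting over proliferative zone, with its standard error for the 39 listed genes that passed the filter, colored by role (*Thbs1* is drawn in 2 roles), with the 7 members in bold. Filled circles mark the 8 called genes, which lie on both sides of 0, and dashed lines mark log2 fold changes of 1 and -1.

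Markers of other cell types moved with the zones. The summed level of 10 osteoblast and osteocyte markers was 9595 to 37416 CPM in resting and 620 to 4005 CPM in proliferative libraries, with *Mepe* and *Sost* at 0 in the latter. Osteoclast markers (8 genes) summed to 1496 to 4549 CPM and 14.4 to 445 CPM, with *Calcr* and *Ocstamp* at 0 in the proliferative zone, and perichondrium and fibroblast markers (8 genes) to 5374 to 26161 CPM and 154 to 2254 CPM, with *Scx* at 0 in the resting zone and *Dpt*, *Tnmd*, *Pi16* and *Dlk1* at 0 in the proliferative zone. *Col1a1*, which is in the osteoblast list as well, made up 95.5 to 99.2% of this last sum in the resting and 96.4 to 99.2% in the proliferative libraries, so that it does not show perichondrium apart from bone, and the other 7 genes summed to 117 to 299 CPM and 1.60 to 25.2 CPM. Of the osteoblast and osteocyte sum, *Col1a1* made up 53.5 to 69.1% and 24.5 to 55.6%, and the other 9 genes summed to 4462 to 11549 CPM and 468 to 1776 CPM. Neutrophil markers (9 genes) summed to 3200 to 4111 CPM in resting and 0 to 561 CPM in proliferative libraries, with *Mpo* and *Elane* at 0 in the latter. Macrophage markers (8 genes) summed to 957 to 1078 CPM and 193 to 483 CPM, with *Adgre1* at 0 in the proliferative zone. Endothelial markers (9 genes) summed to 221 to 383 CPM and 83.3 to 113 CPM, with *Pecam1*, *Kdr* and *Cldn5* at 0 in the proliferative zone. Of the macrophage markers, 3 passed the filter and 2 were called, on the resting side, while 1 endothelial marker passed and 0 were called. Chondrocyte markers (10 genes) were lower in the resting zone, at 7217 to 18602 CPM, than in the proliferative zone, at 34145 to 58703 CPM.

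Erythroid markers (7 genes) summed to 1811 to 12026 CPM in resting and 0 to 1716 CPM in proliferative libraries, megakaryocyte and platelet markers (7 genes) to 49.1 to 210 CPM and 4.15 to 42.7 CPM, and marrow stroma markers (7 genes) to 139 to 428 CPM and 1.60 to 50.5 CPM. Of these markers, *Pf4*, *Gp9*, *Treml1* and *Pdgfrb* were at 0 in the proliferative zone. The sum of the hypertrophic chondrocyte markers (7 genes) overlapped, at 739 to 1701 CPM and 1203 to 1870 CPM, but its members went both ways. Of 6 tested, *Mmp13* and *Spp1* were called on the resting side and *Col10a1*, *Panx3* and *Pth1r* on the proliferative side, where *Panx3* stood at 736 ± 161 CPM against 24.4 ± 18.4 CPM (SD, n = 4), and *Ihh* was at 0 in the resting zone. These genes were named after their values were seen.

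**Figure D4:**
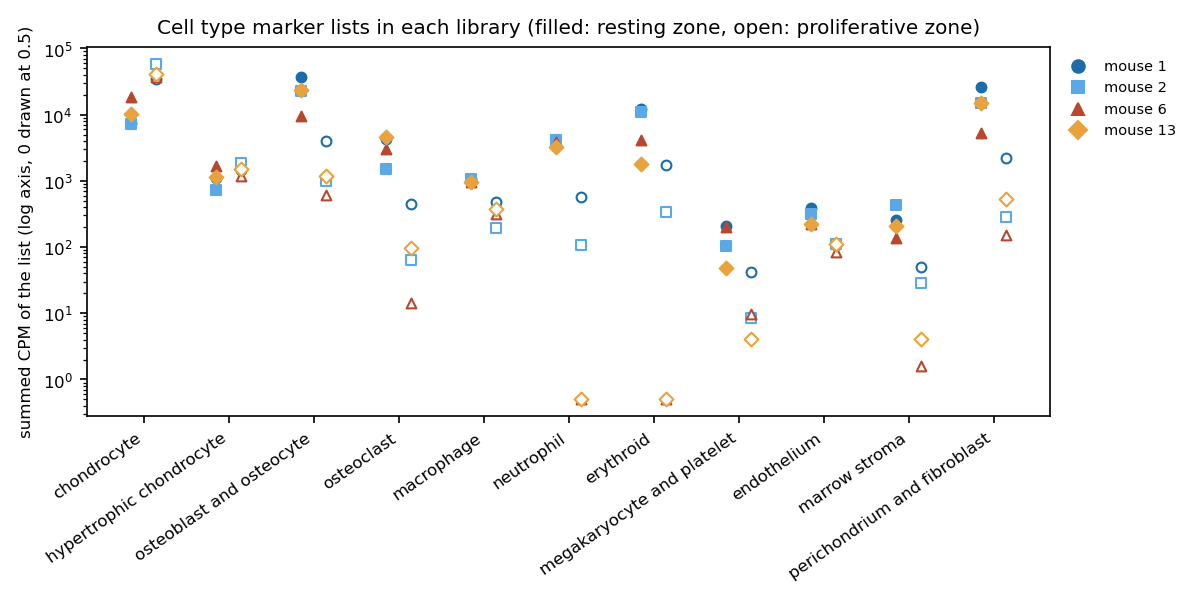
Summed CPM (log axis, with 0 drawn at 0.5) of the cell type marker lists in each library, filled for the resting and open for the proliferative zone, with a symbol for each mouse. Osteoblast and osteocyte markers lay at 9595 to 37416 CPM in resting and at 620 to 4005 CPM in proliferative libraries, and chondrocyte markers at 7217 to 18602 CPM and 34145 to 58703 CPM.

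The libraries with the extreme marker sums of a zone were extreme for some of the genes and not for others. The resting zone library of mouse 1 had the highest osteoblast and osteocyte sum (37416 CPM), the highest *Tgfbr1* level (128 CPM) and the lowest *Tgfb2* level (18.2 CPM) of its zone, but also the lowest *Tgfbr2* level (75.9 CPM), while the lowest *Bmpr1a* and *Id1* levels were those of mouse 13. The resting zone library of mouse 6 had the lowest osteoblast and osteocyte sum (9595 CPM), the highest chondrocyte sum (18602 CPM) and the highest *Bmpr1a* and *Id1* levels. In the proliferative zone, the library of mouse 1 had the highest osteoblast and osteocyte sum (4005 CPM) and the lowest *Tgfb2*, *Bmpr1a* and *Id1* levels, whereas the highest *Tgfbr1* level (20.8 CPM) was in the library of mouse 6, which had the lowest osteoblast and osteocyte sum (620 CPM). In mouse 6, the differences on the log2(CPM + 1) scale between the zones were -1.52 for *Tgfb2*, 1.22 for *Tgfbr1*, 0.99 for *Tgfbr2* and -0.98 for *Bmpr1a*, against -0.31 to -2.10, 2.80 to 3.13, 1.09 to 2.39 and -1.80 to -2.73 in the other mice. The part of these other cell types in the results on TGF-β and BMP genes was not tested.

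The size of the differences was recomputed with other tests, scalings and filters and with mice or libraries left out. *Tgfbr1* was called in 6 of 18 alternatives, *Bmpr1a* in 3, *Tgfb2* in 2 and *Tgfbr2* in 1 of 18 each, and *Bmpr2*, *Id1* and *Id3* in 0 of 19, 18 and 17. The likelihood ratio test called *Tgfbr1*, *Tgfbr2*, *Tgfb2* and *Bmpr1a*, where it called 25.1% of all tested genes. The study names this kind of test, but it was run here with the mouse block and the filter above, so these are not the study's own calls. The direction held under each alternative for the 7 genes.

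**Figure D5:**
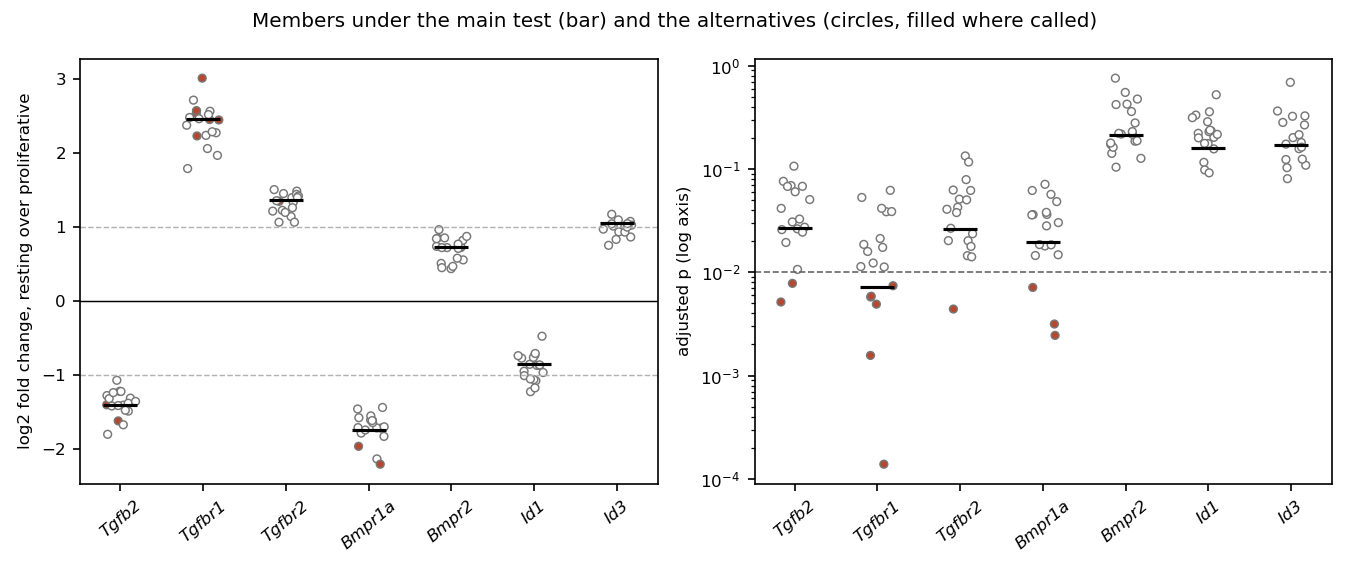
Log2 fold change, resting over proliferative zone (left), and adjusted p on a log axis (right) of the 7 genes that passed the filter. Black bars give the main edgeR test and circles the alternatives, filled where the gene was called. *Tgfbr1* was called in 6 of its 18 alternatives, with an adjusted p between 0.000138 and 0.0620.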

How the data were processed

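RNA from laser-microdissected resting and proliferative zones of 4 mice was amplified in 2 rounds of in vitro transcription and sequenced. After trimming, the authors aligned reads to GRCm38 with HISAT2 2.1.0 and counted them per Ensembl gene with HTSeq 0.11.2. They deposited the counts of 43629 genes without normalization. A second deposited table was used for gene symbols only, and its columns of per-library values and of the authors' own comparison (fold changes, likelihood ratio, p-values) were not used.

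Zones were compared with edgeR 4.0.16 in R 4.3.3 on the counts, with TMM factors of 0.934 to 1.09, the filter by zone (minimum count 10, minimum total 15), the mouse as a block and a common biological coefficient of variation of 0.369. The study's methods name no block. It was used here because the genes were to be compared within each animal. Libraries with the same number share an animal by the labels, and their deviations from the zone means correlated at 0.165, 0.0136, 0.137 and 0.0577 across genes in mice 1, 2, 6 and 13. Every 2 libraries of a zone differed by more than sampling noise. Ratios of summed counts carry exact 95% intervals. Genes named beyond the 10 were those called in each role of the list, at most 4 a direction, and the receptor, Smad or inhibitor with the highest mean CPM. *Bmpr1b* and *Acvr1* were looked up in addition. The genes, lists and rules were chosen with earlier results of these data known. 1 further marker list is not reported here. Alternatives were the likelihood ratio test, DESeq2 1.42.0, no block, other scaling factors and filters, a pseudocount of 5 in place of 1, each sex alone, each mouse or library left out and, added after the data were seen, an exact permutation within mice. Coordinates are those of GENCODE on GRCm38, and upstream sequences are RefSeq's on GRCm38.p6. Other steps used Python 3.11.15.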

Additional observations from a re-analysis of the deposited data

Results flagged for a closer look

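Levels in CPM of the 10 genes were examined in 19 groups of 4 libraries for a library far from the other 3 by Dixon's ratio. Chance alone marks about 1 in 20 groups, except where 3 libraries are tied at 0, since any count in the fourth then meets the criterion. The resting zone library of mouse 1 stood apart for *Tgfbr1*, at 128 CPM, where the other 3 lay at 34.9 to 49.7 CPM. The proliferative zone library of mouse 1 stood apart for *Tgfb1*, at 3.88 CPM from 2 counts, with the other 3 at 0. Likewise, the resting zone library of mouse 6 stood apart for *Bmp6*, at 5.97 CPM from 3 counts, with the other 3 at 0. Both were marked by these ties, and both counts lie within the limit that a count of 0 allows.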

How the results depend on the processing

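The direction of the 7 genes that passed the filter held under each alternative that gave a value. For *Tgfb1* and *Tgfb3* it held in each refit, while the mean log2 difference of *Tgfb1* in males alone was -0.14 and in females alone 3.01. Counts of called genes are given as higher in the resting and higher in the proliferative zone, 385 and 230 in the main test, of which 1 and 0 were among the 10 genes. The likelihood ratio test gave 557 and 396 (2 and 2 of the 10), all genes with at least 1 count 659 and 445 (1 and 2), and at least 10 counts in every library 143 and 153 (0 and 0, with fewer genes tested). Without the replicate block the counts were 419 and 263 (0 and 0), and *Tgfbr1* had an adjusted p of 0.0113. With 1 mouse left out they were 151 to 349 and 71 to 226, both lowest without mouse 13 and, for the proliferative zone, 117 without mouse 1, and the members called were 0 to 1 and 0. With 1 library left out of the fit without the block, where a single library of a zone is assumed to vary like the rest, they were 255 (without the proliferative zone library of mouse 2) to 472 and 183 to 349, with 0 of the 10 called higher in resting and 0 to 1 in proliferative libraries. Scaling by total counts alone moved the median log2 fold change of all tested genes from 0.04 to 0.16, and *Tgfbr1* stood at 2.57 there. *Tgfb1*, *Tgfb3* and *Bmp6* had too few counts for the filter, and *Id3*, with 75 counts in all, failed it without mouse 6.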
